A study of Homo sapiens with 12 samples.

Results

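The genes of human chromosome 13 were followed in order of position through depletion of 2 chromatin-modifying enzymes in a breast cancer cell line. A gene was a member where the GRCh38 annotation places it on chromosome 13, where a probe set (the group of short probes that reads 1 transcript) carries its symbol and no other, and where its mean log2 value over the 12 arrays was above the 40th percentile of all non-control probe sets, 5.98. Where a gene had several such probe sets, the one with the highest mean was used. Members were thus chosen by position and by measured level, with earlier results of these data known, and DLEU2 was singled out for its change with HDAC5 shRNA. These criteria gave 143 members of the 11963 genes that the array measured with a single-symbol probe set. They are 143 of the 214 such genes on the chromosome, the other 71 lying below the level threshold. Of the members, 139 are protein-coding, DLEU2 and DLEU1 are long noncoding RNAs, and OR7E37P and OR7E156P are transcribed pseudogenes. Just inside the threshold lay PROZ at 5.99, OR7E156P and ALOX5AP at 6.0, and just outside it GJA3 at 5.78, CPAP at 5.84 and ZMYM5 at 5.87.

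The cells were MDA-MB-231, an established line of oestrogen receptor-negative, mesenchymal-like breast cancer, and expression was read on Affymetrix human 3′ expression arrays. The groups were cells with HDAC5 shRNA and cells with scramble control shRNA that carried no further tag in the labels, and cells with LSD1 shRNA and a second scramble set tagged for the LSD1 experiment, with 3 arrays in each. LSD1, encoded by KDM1A, removes methyl groups from histone lysines, and HDAC5 belongs to the class IIa deacetylases. The shRNA was delivered as lentiviral particles, the controls received lentiviral particles with a scrambled sequence, and replicates were labelled biological without a statement of what separated them, so p-values measure the spread between these arrays. The untagged scramble arrays were taken as the control of HDAC5 shRNA because the other set names LSD1. Each enzyme was depleted with 1 shRNA product in 1 cell line, with no rescue or second shRNA among the samples analysed here.

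The long arm of chromosome 13 is known above all for RB1, the retinoblastoma tumour suppressor that restrains E2F transcription factors, and for the neighbouring region lost in chronic lymphocytic leukaemia. In that region the noncoding RNA DLEU2 hosts the microRNAs miR-15a and miR-16-1, which restrain BCL2 and cyclins, beside TRIM13 and DLEU1. Elsewhere the chromosome carries RFC3, a subunit of the clamp loader of DNA replication, TFDP1, the DNA-binding partner of E2F factors, and BORA, an activator of Aurora A kinase.

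The mature microRNAs are shown because DLEU2 is their host transcript; the array did not measure them. In RefSeq both lie within the span of DLEU2 on the minus strand of GRCh38.p14, miR-16-5p at chr13:50049027-50049048 and miR-15a-5p at chr13:50049167-50049188. They share the seed, bases 2 to 8, which is in capitals, and 16 of 22 positions.
miR-16-5p: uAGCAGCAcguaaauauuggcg
miR-15a-5p: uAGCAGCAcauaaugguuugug

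Promoter windows of DLEU2 and of 3 members with large increases under HDAC5 shRNA are shown from RefSeq (GRCh38.p14), from 250 bases before to 50 bases after a transcript start. Capitals mark exact matches, on either strand, to an E2F site (TTTCCCGC, TTTGGCGC, TTTCGCGC or TTTGCCGC), the cell-cycle element CHR (TTTGAA), the CCAAT box (CCAAT) and the cAMP response element (TGACGTCA). The upstream DLEU2 window, chr13:50125492-50125791 on the minus strand, held none of these letters. The second DLEU2 window, chr13:50081992-50082291 on the minus strand, held CHR letters, and 227 of its bases lie in the window of DLEU1 on the opposite strand, chr13:50081919-50082218. The RFC3 window, chr13:33817899-33818198 on the plus strand, held an E2F match 55 bases and a cAMP response element 78 bases before the start. The TFDP1 window, chr13:113584503-113584802 on the plus strand, held an E2F match, and the BORA window, chr13:72727673-72727972 on the plus strand, held 1 CHR and 2 CCAAT matches. These windows do not stand for all members that rose with HDAC5 shRNA. TEX30, which rose more than TFDP1, and CKAP2 and USP12 had windows with none of the letters. Among windows of members that rose, only 2 held E2F letters, those of RFC3 and TFDP1. The window of DIS3, which fell, held 2 E2F matches.
DLEU2, upstream start: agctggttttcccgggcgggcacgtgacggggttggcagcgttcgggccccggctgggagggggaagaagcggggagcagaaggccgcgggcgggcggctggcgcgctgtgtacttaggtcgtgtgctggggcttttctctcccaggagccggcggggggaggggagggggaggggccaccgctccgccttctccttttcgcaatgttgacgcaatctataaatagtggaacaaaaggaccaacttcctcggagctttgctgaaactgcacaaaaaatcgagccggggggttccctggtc
DLEU2, second start: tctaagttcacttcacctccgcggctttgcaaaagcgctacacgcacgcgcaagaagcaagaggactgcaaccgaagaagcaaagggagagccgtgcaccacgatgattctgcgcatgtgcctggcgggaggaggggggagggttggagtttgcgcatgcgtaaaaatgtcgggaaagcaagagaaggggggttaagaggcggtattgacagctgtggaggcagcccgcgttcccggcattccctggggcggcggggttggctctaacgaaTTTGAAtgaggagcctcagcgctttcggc
RFC3: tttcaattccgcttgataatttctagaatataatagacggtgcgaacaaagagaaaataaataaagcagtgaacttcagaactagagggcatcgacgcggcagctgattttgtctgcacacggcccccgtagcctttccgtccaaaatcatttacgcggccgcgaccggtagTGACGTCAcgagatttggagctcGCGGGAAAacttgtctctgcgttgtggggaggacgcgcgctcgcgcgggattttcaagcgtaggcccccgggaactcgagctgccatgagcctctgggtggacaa
TFDP1: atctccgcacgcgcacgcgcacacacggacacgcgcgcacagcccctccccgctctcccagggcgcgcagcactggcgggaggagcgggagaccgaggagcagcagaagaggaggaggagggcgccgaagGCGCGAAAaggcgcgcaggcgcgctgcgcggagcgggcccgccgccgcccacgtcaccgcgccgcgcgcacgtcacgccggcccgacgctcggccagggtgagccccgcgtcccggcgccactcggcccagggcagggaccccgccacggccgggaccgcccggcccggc
BORA: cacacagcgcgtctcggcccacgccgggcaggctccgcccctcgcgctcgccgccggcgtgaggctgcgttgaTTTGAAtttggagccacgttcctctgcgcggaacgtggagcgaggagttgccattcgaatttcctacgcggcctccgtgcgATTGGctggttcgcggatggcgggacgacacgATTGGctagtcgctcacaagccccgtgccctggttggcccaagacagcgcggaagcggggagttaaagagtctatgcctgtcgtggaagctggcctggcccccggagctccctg

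The table held 206 windows for 130 of the 143 members and 35116 windows in all. E2F letters stood in 4.37% of the members' windows against 3.31% of all windows, CHR in 14.6% against 15.2%, CCAAT in 35.9% against 34.6%, and the cAMP response element in 1.94% against 1.85%. Among the 67 windows of members that were higher with HDAC5 shRNA, DLEU2 among them, the shares were 2.99%, 16.4%, 40.3% and 4.48% in the same order. Among the 60 windows of members that were lower they were 5.0%, 8.33%, 35.0% and 1.67%, and among the 79 windows of members not called 5.06%, 17.7%, 32.9% and 0. The letters are a description of these windows, and binding was not measured.

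Both targeted genes were lower in the arrays labelled as depleted. HDAC5 averaged 6.29 ± 0.18 in HDAC5 shRNA cells and 7.4 ± 0.17 in scramble cells (log2, SD, n = 3 each; difference -1.11, SE 0.11, limma adjusted p = 1.61e-05). KDM1A averaged 6.63 ± 0.17 in LSD1 shRNA cells and 9.72 ± 0.09 in scramble cells (difference -3.08, SE 0.11, adjusted p = 6.99e-05). The MDA-MB-231 genes VIM, CD44, CAV1, AXL, EGFR and PLAU stood between percentiles 81.8 and 99.7 of all genes. Of 7 epithelial and luminal genes expected low, PGR, CDH1 and ESR1 stood at percentiles 1.4, 12.7 and 33.4, whereas EPCAM, ERBB2, GATA3 and KRT8 stood at 54.1, 61.0, 62.2 and 91.1. CDH1 averaged 6.4 with LSD1 shRNA and 4.18 in its scramble cells, and its part in the results was not tested. Of 5 blood cell genes, PTPRC and LYZ stood at percentiles 5.7 and 4.1, and none of the 5 above 40.7. The 7 fibroblast and endothelial genes stood at percentiles 1.7 (LUM) to 51.2 (COL1A1). Replicates correlated at 0.9985 to 0.9989 in HDAC5 shRNA arrays and 0.9983 to 0.999 in their scramble arrays, and at 0.9908 to 0.9968 in LSD1 shRNA arrays and 0.9945 to 0.9977 in their scramble arrays. LSD1 shRNA replicate 2 stood apart from its group, differing from the other 2 arrays by a median of 0.152 over the members where those 2 differed by 0.101. A sign of RNA integrity, the ACTB 3′ minus 5′ probe set difference, was 0.594 to 0.733 in HDAC5 shRNA arrays against 0.834 to 0.948 in scramble arrays, and its part in the results was not tested. It was 1.343 to 1.561 in LSD1 shRNA arrays and 1.257 to 1.37 in scramble arrays. Array medians were 6.59 to 6.65 in the HDAC5 experiment and 7.05 to 7.16 in the LSD1 experiment, so levels are compared within an experiment only.

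DLEU2 had the largest change of any member under HDAC5 shRNA, and was chosen for it, so these values are a description with no test. Its log2 values were 9.75, 9.72 and 9.81 in HDAC5 shRNA cells, against 7.52, 7.35 and 7.37 in scramble cells. The groups lay far apart, with a difference of 2.35 (SE 0.06), or 5.09-fold higher with HDAC5 shRNA. A second, dimmer DLEU2 probe set read 4.80, 5.18 and 5.32 in HDAC5 shRNA cells and 3.83, 3.75 and 3.76 in scramble cells. The main probe set is of a type whose probes can match related transcripts, and a further probe set that names DLEU2 with other genes was not used.

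With LSD1 shRNA, which played no part in that choice, DLEU2 read 9.50, 8.12 and 9.69, against 10.47, 9.91 and 10.35 in scramble cells. All LSD1 shRNA arrays lay below all scramble arrays, replicate 2 by far the most. The difference of -1.14 (SE 0.41) did not pass (limma adjusted p = 0.168), and without LSD1 shRNA replicate 2 it was -0.65 (adjusted p = 0.0914). A fit of all 12 arrays with 1 shared estimate of the spread gave the same difference with an adjusted p of 0.0237. That estimate takes in the HDAC5 experiment, where the DLEU2 SDs were 0.05 (HDAC5 shRNA) and 0.09 (scramble). In the LSD1 experiment they were 0.85 (LSD1 shRNA) and 0.29 (scramble), so the shared estimate understates the spread there. The second probe set differed by -0.77 (adjusted p = 0.293). The HDAC5 change exceeded the LSD1 change by 3.49 (SE 0.44), which includes the change DLEU2 was chosen for and carries no test.

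None of the genes that flank DLEU2 differed by more than 0.73 under HDAC5 shRNA, in either direction. Of the 5 nearest members on each side, 3 rose, 3 fell and 4 did not pass, with a median of -0.08, against -0.012 over all members. Of all genes 21.3% were higher and 23.2% lower, and of those above the level threshold 30.3% and 30.7%. TRIM13, an endoplasmic reticulum ubiquitin ligase whose gene lies within the DLEU2 span, read 8.75, 8.81 and 8.82 in HDAC5 shRNA cells and 8.78, 8.78 and 8.85 in scramble cells. These groups overlapped (difference -0.01, SE 0.05, adjusted p = 0.877). DLEU1 read 9.58, 9.50 and 9.57 in HDAC5 shRNA cells and 9.44, 9.46 and 9.45 in scramble cells. Its HDAC5 shRNA arrays lay above all scramble arrays, but the difference of 0.10 (SE 0.04) did not pass (adjusted p = 0.0941).

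Among the other neighbours, RCBTB2, a protein with an RCC1-like domain, rose by 0.57 (SE 0.08, adjusted p = 0.000173). KPNA3, an importin that carries proteins into the nucleus, rose by 0.23 (SE 0.04, adjusted p = 0.0017). RNASEH2B, a subunit of the nuclease that removes RNA from DNA, rose by 0.22 (SE 0.08, adjusted p = 0.0426), and this call was lost when any of 4 of the 6 arrays was left out (adjusted p up to 0.164). On the far side, INTS6, an Integrator subunit, fell by 0.63 (SE 0.06, adjusted p = 2.33e-05), and its second probe set fell by 0.54. DHRS12, a predicted short-chain dehydrogenase, fell by 0.73 (SE 0.06, adjusted p = 8.12e-06), though its second, dimmer probe set differed by 0.08 and did not pass. FNDC3A fell by 0.21 (SE 0.07, adjusted p = 0.0452), a call lost in 5 of 6 fits that leave out 1 array. CAB39L at -0.16 and RCBTB1 at -0.15 did not pass.

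With LSD1 shRNA all 10 neighbours had negative differences, with a median of -0.301, and 1 of them passed. Over all genes 48.3% of differences were negative and 4.92% passed, and of the 81 members before the widest gap along the chromosome, which include these neighbours, 70 were negative with a median of -0.267. DLEU1 turned positive without LSD1 shRNA replicate 2 (0.13) and FNDC3A without LSD1 shRNA replicate 3 (0.07). RNASEH2B read 6.78, 6.89 and 6.50 in LSD1 shRNA cells, against 7.54, 8.16 and 7.63 in scramble cells. Every LSD1 shRNA array lay below every scramble array, and the fall was 1.05 on the log2 scale (SE 0.19, adjusted p = 0.029). The call held in 1 of 6 fits that leave out 1 array (adjusted p 0.0355 to 0.113), and the second RNASEH2B probe set differed by 0.12. TRIM13 read 8.78, 8.58 and 8.80 in LSD1 shRNA cells and 9.09, 9.01 and 9.14 in scramble cells, with no overlap, but its difference of -0.36 did not pass (adjusted p = 0.0984). DLEU1 overlapped between the groups (difference -0.17, adjusted p = 0.773). The other 7 differences lay between -0.55 for DHRS12 and -0.06 for FNDC3A.

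**Figure D1:**
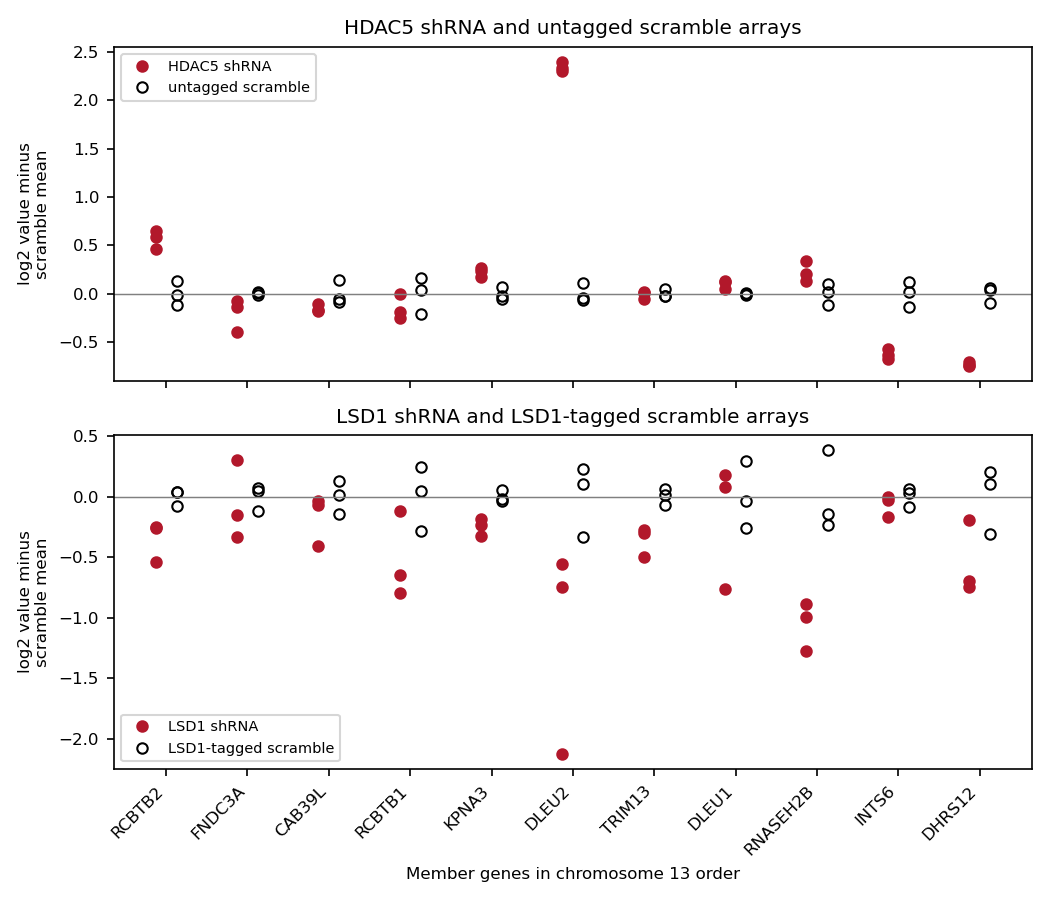
Log2 values minus the scramble mean for DLEU2 and the 5 nearest members on each side, in chromosome order, with shRNA arrays (filled) left of scramble arrays (open) for each gene. DLEU2 stands alone at 2.35 with HDAC5 shRNA while TRIM13 and DLEU1 lie near 0, and with LSD1 shRNA most shRNA arrays lie below 0.

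Over the chromosome, HDAC5 shRNA changed members in both directions in nearly equal numbers. Of 143 members, 48 were higher, DLEU2 among them, and 45 lower at a limma adjusted p under 0.05, together 65.0%. DLEU2 was chosen for this change, so its place in the count is no test. Over all genes 44.5% passed, and over the genes above the same level threshold 61.0%, so the members' share was near that of genes at like levels. Increases made up 21.3% of all genes and 30.3% of those above the threshold, and decreases 23.2% and 30.7%. Over all 214 chromosome 13 genes 53 were higher and 53 lower. The median difference was -0.012, against -0.017 over all genes, and member differences ran from -1.02 to 2.35. The groups did not overlap for 50 members in each direction (69.9%, against 50.8% of all genes and 68.1% of those above the threshold). All genes had 24.1% with HDAC5 shRNA above and 26.6% with it below, and genes above the threshold 33.9% and 34.3%. DLEU2 and NBEA were the 2 members that differed by at least 2-fold.

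Of the increases, the next 3 largest concerned RFC3, BORA and TEX30. RFC3, whose promoter is shown above, read 10.61, 10.61 and 10.68 in HDAC5 shRNA cells, against 9.77, 9.59 and 9.64 in scramble cells, a rise of 0.97 (SE 0.05, adjusted p = 3.2e-07). A second RFC3 probe set rose by 1.18. BORA read 8.90, 8.82 and 8.97 in HDAC5 shRNA cells and 8.0, 7.86 and 8.05 in scramble cells, a rise of 0.92 (SE 0.06, adjusted p = 1.57e-06). For both genes every HDAC5 shRNA array was far above every scramble array. TEX30 rose by 0.89 (SE 0.05), and TFDP1 by 0.81 (SE 0.04), reading 11.19, 11.18 and 11.23 in HDAC5 shRNA cells and 10.41, 10.41 and 10.36 in scramble cells. The second TFDP1 probe set rose by 1.01.

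The largest decreases concerned NBEA, MBNL2 and RGCC. NBEA, neurobeachin, which anchors protein kinase A and acts in vesicle traffic, read 6.77, 6.92 and 6.91 in HDAC5 shRNA cells, against 7.80, 7.94 and 7.94 in scramble cells, a fall of 1.02 on the log2 scale (SE 0.07, adjusted p = 1.18e-06). MBNL2, a regulator of alternative splicing, read 8.84, 9.06 and 8.89 in HDAC5 shRNA cells and 9.89, 9.87 and 10.01 in scramble cells, a fall of 0.99 (SE 0.07). Both further MBNL2 probe sets also fell, by 0.71 and 0.28. RGCC, a cell cycle regulator, fell by 0.95 (SE 0.06), the kinase gene NEK3 by 0.87 (SE 0.06), CRYL1, an enzyme of the uronate pathway, by 0.84 (SE 0.08), ANKRD10 by 0.69 (SE 0.06) and SLC7A1, a cationic amino acid transporter, by 0.67 (SE 0.04). Each of these had 3 HDAC5 shRNA arrays below all 3 scramble arrays, and each passed when any 1 array was left out.

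By role, the list of replication and repair and that of mitosis and the centrosome had the highest medians with HDAC5 shRNA. The first list also holds TFDP1 and RB1, which act with or on E2F factors and do not themselves copy or repair DNA. For comparison, 30.3% of genes above the level threshold were called higher and 30.7% lower, and of all genes 21.3% and 23.2%. Of 8 members of replication and repair, 6 rose and 1 fell, with a median of 0.23: beside RFC3, TFDP1 and RNASEH2B these were RB1 (0.32, SE 0.10, adjusted p = 0.0233), the end-joining ligase LIG4 (0.22) and the excision nuclease ERCC5 (0.23), while PARP4, a vault particle enzyme, fell by 0.25. Of 8 members of mitosis and the centrosome, 5 rose and 3 fell, with a median of 0.44. CKAP2, a spindle protein, rose by 0.64 (SE 0.07, adjusted p = 2.15e-05), CCNA1, cyclin A1, by 0.63 (SE 0.06, adjusted p = 1.59e-05) and TUBGCP3, of the gamma-tubulin complex, by 0.51 (adjusted p = 0.000187), while NEK3, PIBF1 and CDC16 fell. Of 21 members of folding, ubiquitin and trafficking, 11 rose and 5 fell (median 0.15), among them the deubiquitinase USP12 (0.63, SE 0.06) and the nucleoporin NUP58 (0.54, SE 0.05), both higher with HDAC5 shRNA.

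Members of metabolism and transport mostly fell or did not pass: 1 of 17 rose and 9 fell, with a median of -0.19. These included SLC7A1, CRYL1, DHRS12 and PCCA, a subunit of propionyl-CoA carboxylase (-0.49). Of 12 members of receptors, ligands and signalling none rose and 5 fell (median -0.16), among them RGCC, IFT88, a ciliary transport protein (-0.63), and GAS6, the ligand of AXL (-0.24). Of 13 members of matrix, adhesion and cytoskeleton 4 rose and 6 fell (median -0.09), with COL4A1 and COL4A2, the chains of basement membrane collagen, at -0.17 and -0.31. Chromatin and transcription split evenly (4 up and 4 down of 16, median -0.02), with HMGB1, a chromatin architectural protein, at 0.35 and TSC22D1, a leucine zipper factor, at -0.63. RNA processing did too (5 up and 5 down of 14, median -0.03), with DIS3, the exosome nuclease, at -0.60. The lists cover 109 of the 143 members. Over all genes 21.3% were called higher and 23.2% lower, and over genes above the level threshold, which all members passed, 30.3% and 30.7%.

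**Figure D2:**
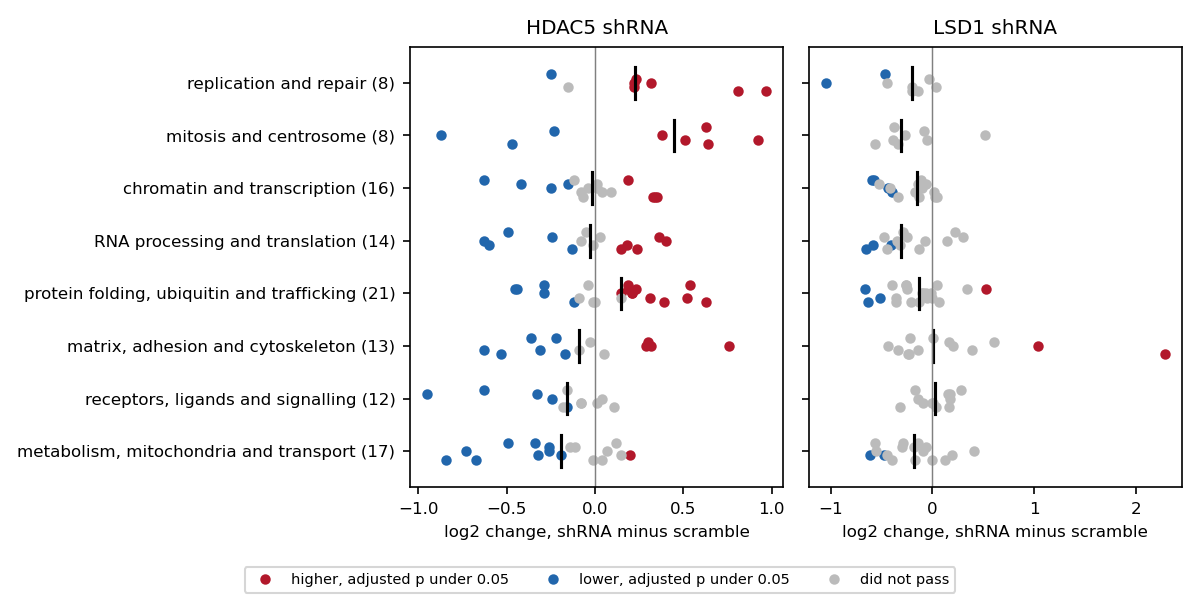
Log2 changes of the 109 listed members by role, HDAC5 shRNA left and LSD1 shRNA right, with 1 point for each gene and a bar at the list's median. With HDAC5 shRNA the medians run from 0.44 for mitosis to -0.19 for metabolism, and with LSD1 shRNA from 0.02 for receptors to -0.31 for RNA processing.

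LSD1 shRNA gave few individual calls. At an adjusted p under 0.05, 4 of 143 members were higher and 15 lower (13.3%, against 4.92% of all genes and 6.08% of those above the level threshold). Increases made up 2.80% of members, against 2.93% of all genes and 3.23% of those above the threshold. Decreases made up 10.5% of members, against 2.00% of all genes and 2.85% of those above the threshold. Over all 214 chromosome 13 genes 4 were higher and 16 lower. The count moved with single arrays: it was 3, 23 and 3 without LSD1 shRNA replicates 1, 2 and 3, and 5, 2 and 2 without scramble replicates A, B and C. Decreases outnumbered increases without LSD1 shRNA replicate 2 (18 against 5) but not in the other 5 such fits, which called 2 or 3 members higher and at most 2 lower. Calls over all genes moved with it, between 104 and 786. The fit of all 12 arrays, whose spread is shared with the less variable HDAC5 arrays, called 10 members higher and 43 lower.

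Most members lay on the negative side whether or not they were called. The difference was negative for 103 of 143 members (72.0%, against 48.3% of all genes and 51.4% of those above the level threshold). The member median was -0.144, against 0.007 over all genes. Taken array by array against the scramble mean, the member medians were -0.157, -0.14 and -0.152 in LSD1 shRNA cells and -0.03, 0.012 and 0.003 in scramble cells. The 3 LSD1 shRNA arrays were alike, replicate 2 included, and lay below all scramble arrays. The groups did not overlap for 15 members with LSD1 shRNA above and 48 with it below (44.1% together, against 27.0% of all genes and 34.1% of those above the threshold). All genes had 14.3% above and 12.7% below, and genes above the threshold 17.0% and 17.1%. In the order of 23 chromosomes by their median with LSD1 shRNA, chromosome 13 was the third lowest, the others running from -0.32 to 0.095. Leaving out 1 array in turn gave member medians between -0.17 and -0.151.

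The negative differences lay mainly before the widest gap between members, which falls between CKAP2 and TDRD3; this division was made after the values were seen and carries no test. Of the 81 members before the gap, 70 had negative differences, with a median of -0.267, 3 rose and 14 fell. Their array medians were -0.276, -0.234 and -0.248 in LSD1 shRNA cells, against -0.031, 0.012 and 0.003 in scramble cells. Of the 62 members after the gap, 33 had negative differences, with a median of -0.037, 1 rose and 1 fell. Their array medians were 0.007, -0.036 and -0.001 in LSD1 shRNA cells and -0.025, 0.012 and 0.002 in scramble cells, which overlap. All 3 LSD1 shRNA arrays lay below all scramble arrays for 39 of the 81 members and for 9 of the 62. The share of all genes was 12.7%, and of those above the level threshold 17.1%. Of all genes 2.93% were called higher and 2.00% lower, and above the threshold 3.23% and 2.85%. With HDAC5 shRNA the medians before and after the gap were -0.012 and -0.009.

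**Figure D3:**
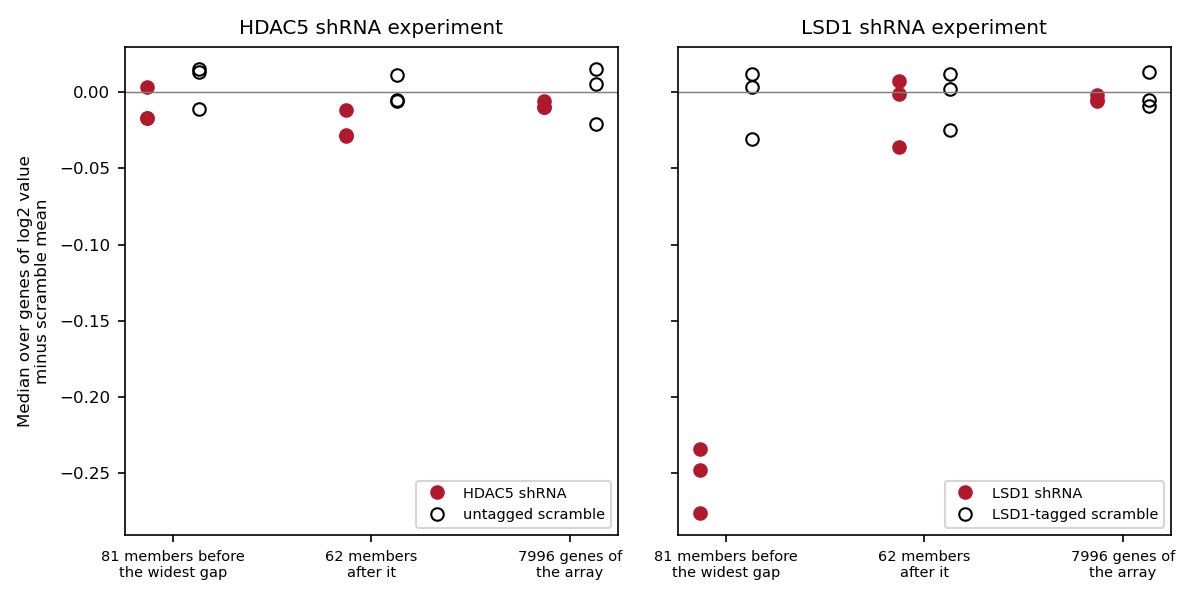
Median over genes of the log2 value minus the scramble mean, for each array, in the HDAC5 shRNA (left) and LSD1 shRNA (right) experiments, with shRNA arrays filled and scramble arrays open. The LSD1 shRNA arrays lie between -0.276 and -0.234 for the 81 members before the widest gap and near 0 for the 62 after it and for all 7996 genes above the level threshold.

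Running medians of 11 adjacent members showed the same layout. With LSD1 shRNA 110 of 133 windows were below 0, with the lowest at -0.547 from KPNA3 to TDRD3, a stretch that holds DLEU2, and the highest at 0.17 from SLITRK5 to DOCK9. With HDAC5 shRNA 72 of 133 were below 0, with the highest at 0.316 from HMGB1 to CCNA1 and the lowest at -0.34 from INTS6 to PIBF1. Changes of adjacent members correlated little: over 142 pairs Pearson's r was 0.071 and Spearman's rho 0.076 with HDAC5 shRNA, and r was 0.037 and rho 0.179 with LSD1 shRNA. On the other chromosomes r ran from -0.094 to 0.203 with HDAC5 shRNA and from -0.102 to 0.32 with LSD1 shRNA. Their rho ran from -0.106 to 0.202 and from -0.121 to 0.426. Counted from the lowest with LSD1 shRNA, chromosome 13 held place 3 by r but place 11 by rho. Adjacent genes share the arrays, so these are descriptions.

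**Figure D4:**
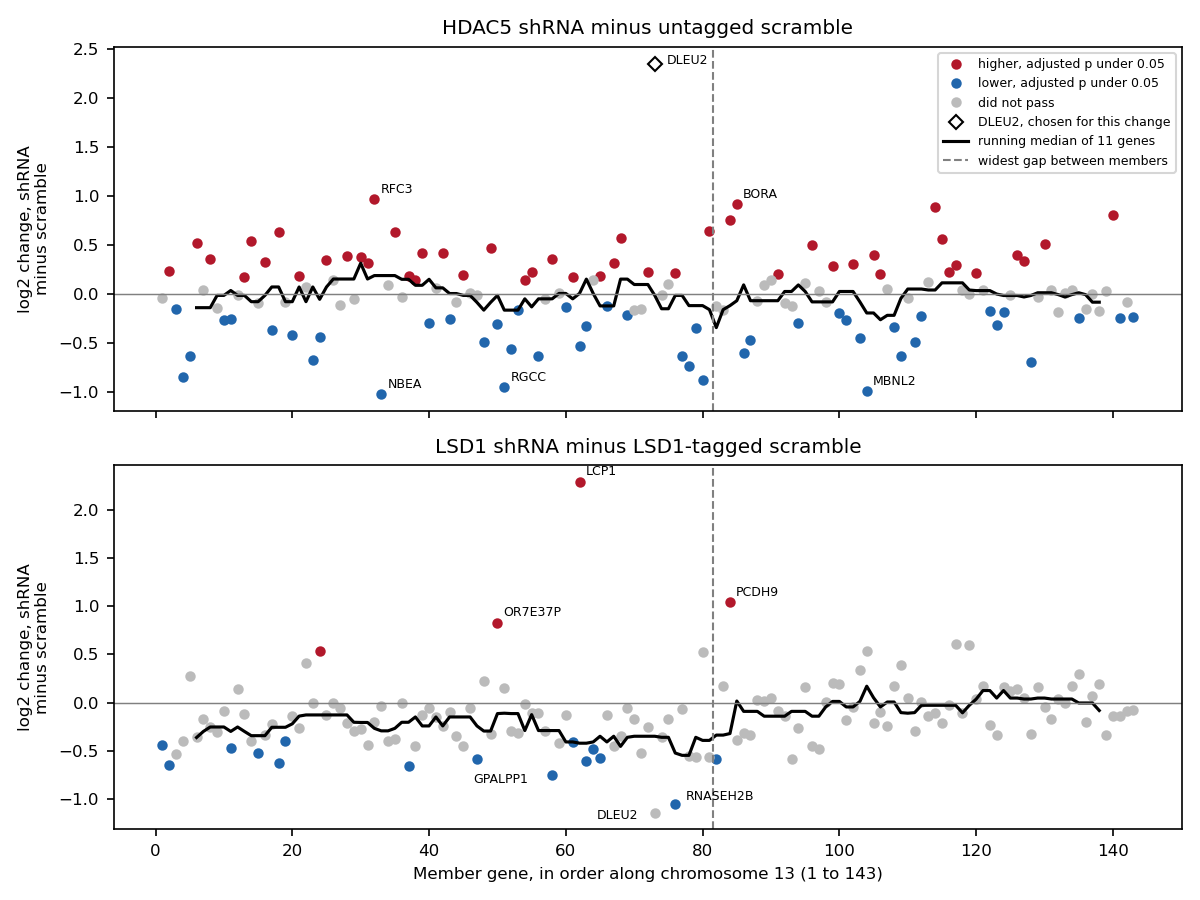
Log2 change of each of the 143 members in chromosome order, shRNA minus scramble, for HDAC5 shRNA (top) and LSD1 shRNA (bottom), with calls in colour and a running median of 11 members. HDAC5 shRNA points scatter on both sides of 0, whereas the LSD1 shRNA running median lies below 0 up to the widest gap. In the first windows centred past the gap, which reach back across it, the running median is -0.337 to -0.321. Further on it lies between -0.141 and 0.17.

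The 4 increases with LSD1 shRNA were LCP1, PCDH9, OR7E37P and UBL3. LCP1, the actin-bundling protein L-plastin, read 9.75, 10.57 and 9.88 in LSD1 shRNA cells, against 7.05, 8.22 and 8.05 in scramble cells. The rise of 2.29 (SE 0.35, adjusted p = 0.0194), 4.91-fold, was the largest of any member, and every LSD1 shRNA array lay above every scramble array. PCDH9, a protocadherin of cell adhesion, read 7.79, 7.48 and 7.72 in LSD1 shRNA cells and 6.64, 6.45 and 6.78 in scramble cells, a rise of 1.04 (SE 0.12, adjusted p = 0.00881), while its second, dim probe set differed by 0.10 and did not pass. OR7E37P, an olfactory receptor pseudogene with many near-identical copies, read 11.01, 11.05 and 11.25 in LSD1 shRNA cells and 10.19, 10.31 and 10.31 in scramble cells, a rise of 0.83 (SE 0.09, adjusted p = 0.00631) that may include other copies. UBL3, a membrane-anchored ubiquitin-like protein, rose by 0.53 (SE 0.10, adjusted p = 0.0301), while its second probe set differed by 0.25 and did not pass. Of the 14 LSD1 shRNA calls covered by the rule for named genes, PCDH9 and OR7E37P passed without any 1 array, and the other 12 passed in at most 2 of the 6 fits.

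Beside RNASEH2B, the largest decreases with LSD1 shRNA concerned genes of varied roles. GPALPP1 read 8.78, 8.57 and 8.67 in LSD1 shRNA cells and 9.59, 9.38 and 9.31 in scramble cells, a fall of 0.75 (SE 0.11, adjusted p = 0.019). ALG5, which glucosylates the dolichol carrier for N-glycans, fell by 0.66 (SE 0.11), PSPC1, a paraspeckle protein, by 0.65 (SE 0.12) and USP12 by 0.63 (SE 0.09). The second, dim USP12 probe set differed by -0.31 and did not pass. ESD, an esterase that hydrolyses S-formylglutathione, fell by 0.61 (SE 0.11), and a second bright ESD probe set by 0.62. TDRD3, a reader of methylated arginine, fell by 0.59 (SE 0.08), while its second, dim probe set differed by -0.33 and did not pass. WBP4, a spliceosome component, fell by 0.58 (SE 0.09), with its further probe sets at -0.54, which did not pass, and -0.53, which did. By role, with 2.00% of all genes and 10.5% of all members called lower, 4 of 16 chromatin members fell (MPHOSPH8, MED4, GTF3A and TDRD3), as did 3 of 14 in RNA processing, where the median was -0.31. In mitosis none of 8 passed, with a median of -0.3, and in receptors and signalling none of 12, with a median of 0.02. RB1 differed by -0.45 (SE 0.10, adjusted p = 0.0602) and did not pass.

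The question of whether a member responded alike to both depletions was tested as the difference between the changes, in 1 fit of all arrays. The experiments share no array. The difference passed for 69 members (48.3%, against 31.8% of all genes and 42.5% of those above the level threshold). It was positive, that is the HDAC5 shRNA change exceeded the LSD1 shRNA change, for 50 and negative for 19. Both the 69 and the 50 count DLEU2, whose difference includes the change it was chosen for and is no test. Over all genes 15.7% were positive and 16.1% negative, and above the threshold 22.5% and 20.0%. By sign, 84 members moved in opposite directions and 59 in the same. The same split over all genes is not given here, so these sign counts have no comparison and are a description. Of 13 members past the threshold with both shRNAs, 10 moved oppositely and 3 (PCDH9, ESD and PARP4) the same way, with 2.73% of all genes and 3.78% of those above the threshold past it with both. Over all genes 0.995% passed the same way and 1.74% oppositely, and above the threshold 1.40% and 2.38%.

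USP12 rose with HDAC5 shRNA and fell with LSD1 shRNA. It read 9.22, 9.33 and 9.26 in HDAC5 shRNA cells, against 8.71, 8.57 and 8.64 in scramble cells. In the other experiment it read 8.74, 8.62 and 8.71 in LSD1 shRNA cells, against 9.42, 9.22 and 9.32 in scramble cells. The rise of 0.63 and the fall of 0.63 differed by 1.26 (SE 0.11, adjusted p = 1.56e-05). LCP1 differed by -2.83 (SE 0.38, adjusted p = 0.00024), since it fell by 0.53 with HDAC5 shRNA, reading 7.90, 7.84 and 7.81, against 8.33, 8.41 and 8.40 in scramble cells. MBNL2 differed by -1.52 (SE 0.22) and NEK3 by -1.39 (SE 0.21), both with LSD1 shRNA arrays above scramble in changes that did not pass (adjusted p = 0.186 and 0.181). BORA differed by 1.32 (SE 0.21) and RNASEH2B by 1.27 (SE 0.22). PCDH9 was higher with both shRNAs, at 6.4, 6.53 and 6.33 in HDAC5 shRNA cells and 5.6, 5.71 and 5.66 in scramble cells, a rise of 0.76, and its changes differed by -0.28 (SE 0.15), which did not pass (adjusted p = 0.175).

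**Figure D5:**
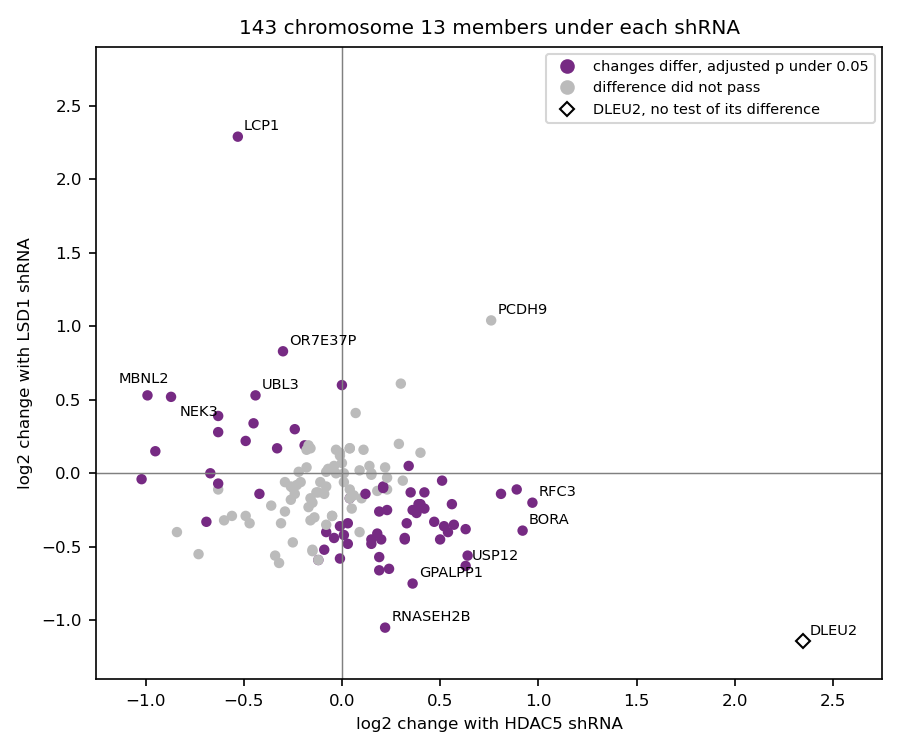
Log2 change of each member with HDAC5 shRNA (horizontal) against that with LSD1 shRNA (vertical), with members whose changes differed at an adjusted p under 0.05 in purple. LCP1 stands apart at 2.29 with LSD1 shRNA, and DLEU2 at 2.35 with HDAC5 shRNA and -1.14 with LSD1 shRNA.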

How the data were processed

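Expression in 12 MDA-MB-231 samples was measured on Affymetrix human 3′ expression arrays. The values analysed are the deposited log2 values that the authors made with RMA in the affy package, per the submitters' processing notes. RMA corrects background, normalizes quantiles and summarises probes, so changes are relative, and those at low signal are compressed. The sources used here do not say whether both experiments were normalized together, and the files name no genome build. No probe value was recomputed. Of 22277 probe sets, 62 are controls, 19064 name 1 symbol, 1043 several and 2108 none in the platform annotation, and the first kind was used; 19052 symbols matched RefSeq and 12 kept the annotation's. Arrays have no count depth, so 3 arrays in each group limit the precision.

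Each shRNA was compared with its own scramble set over 11963 genes with limma 3.58.1 (lmFit, eBayes with trend, R 4.3.3) and Benjamini-Hochberg adjustment over all genes at 0.05, tested on simulated data; an exact permutation test of 3 against 3 cannot go below 0.1. SE is limma's. Alternatives were quantile normalization, the mean of probe sets, 1 fit of 12 arrays, no trend, no dim genes, other level thresholds, leaving out arrays and a replicate block. The members and lists were chosen with earlier results of these data known. Genes named are DLEU2 and its 5 nearest members each side, the 8 largest changes past the threshold in each direction per shRNA with groups that do not overlap, up to 3 per role list, members past the threshold with both shRNAs, those at the level threshold, and up to 6 with the largest difference between shRNAs; RB1, CCNA1, HMGB1 and other list members were added after their values were seen.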

Additional observations from a re-analysis of the deposited data

Results flagged for a closer look

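A second DLEU2 probe set, which the comparisons between groups do not use, also carried a signal above its scramble level: its log2 value was higher by 1.32 (SE 0.12) with HDAC5 shRNA, where the probe set used was higher by 2.35. Its mean over all arrays, 5.31, lies below the level threshold of 5.98.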

How the results depend on the processing

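Against 93 members called with HDAC5 shRNA, a fit of all 12 arrays called 60, and fits without 1 array 80 to 88, with overlap not counted; the 12-array fit shares 1 estimate of the spread with the more variable LSD1 arrays. For LSD1 shRNA, against 19 calls, that fit, which takes in the less variable HDAC5 arrays, gave 53. Leaving out 1 array gave 2 to 23, and leaving out scramble B and LSD1 shRNA 2 together, chosen after seeing the data, gave 1. The differing changes numbered 69, and 62 to 74 with 1 array left out. The HDAC5 shRNA member median of -0.012 was -0.029 with no level threshold and -0.031 to -0.004 with 1 array left out. The LSD1 shRNA median of -0.144 was -0.171 with the mean of probe sets, -0.084 with no threshold, -0.154 without the 2 arrays named above and -0.17 to -0.151 with 1 array left out. The median of the DLEU2 neighbours was -0.084 to -0.029 with HDAC5 shRNA and -0.365 to -0.249 with LSD1 shRNA with 1 array left out. DLEU2 with HDAC5 shRNA was 2.29 after quantile normalization, 1.84 as the mean of probe sets and 2.32 to 2.40 with 1 array left out; with LSD1 shRNA it passed in the 12-array fit (-1.14, adjusted p = 0.0237). Signs turned for the median after the widest gap (-0.037; 0.017 without LSD1 shRNA replicate 2, -0.06 to 0.017 with 1 array left out) and for WBP4 with HDAC5 shRNA (-0.01; 0.25, adjusted p = 0.00241, as the mean of probe sets, -0.03 to 0.01 with 1 array left out). They also turned for 13 results that passed neither with all arrays nor where they turned. With 1 array left out these ranged, with LSD1 shRNA, from -0.24 to 0.07 for FNDC3A, -0.34 to 0.13 for DLEU1, -0.24 to 0.09 for TEX30, -0.25 to 0.05 for TFDP1, -0.33 to 0.18 for NBEA, -0.27 to 0.41 for RGCC and -0.33 to 0.04 for TSC22D1, and from -0.03 to 0.01 for TRIM13 with HDAC5 shRNA. For the HDAC5 minus LSD1 difference they ranged from -0.28 to 0.04 for FNDC3A, -0.1 to 0.09 for CAB39L, -0.03 to 0.44 for DLEU1, -0.2 to 0.02 for PROZ and -0.11 to 0.0 for ALOX5AP. Without the 2 arrays named above, TEX30 was at 0.03 and TFDP1 at 0.04 with LSD1 shRNA, and the differences of FNDC3A, CAB39L and PROZ at 0.01, -0.03 and 0.01. Quantile normalization put the ALOX5AP difference at 0.03. Causes were not tested. Of 1866 alternative values of named genes, 125 lost a call, 23 gained one, 28 turned sign, and 1690 kept their direction and their side of the threshold.

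Replicate numbers were shared in the HDAC5 experiment, where same-numbered arrays deviated from their group means with correlations of -0.052, -0.208 and -0.149. No positive shared deviation showed, but the labels do not say whether the numbers pair the arrays. With the replicate number as a block 86 members were called, and 60 differed between shRNAs. No paired analysis of the LSD1 experiment could be set from the labels, because its scramble arrays carry letters and its shRNA arrays numbers. Deviations from the group means were nonetheless correlated between these groups. LSD1 shRNA replicate 2 correlated at -0.5, 0.599 and 0.028 with scramble A, B and C. Replicate 1 correlated at 0.374, -0.374 and -0.113, and replicate 3 at 0.375, -0.513 and 0.056. The LSD1 fits take no account of this, and its cause was not tested.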

Other observations

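CPAP, a centriole assembly factor just below the level threshold, rose by 0.81 (SE 0.09, adjusted p = 3.76e-05) with HDAC5 shRNA. It read 5.95, 6.21 and 6.02 in HDAC5 shRNA cells and 5.20, 5.17 and 5.39 in scramble cells. With LSD1 shRNA it fell by 0.74 (SE 0.13, adjusted p = 0.0291), reading 5.66, 5.39 and 5.89 in LSD1 shRNA cells and 6.44, 6.29 and 6.42 in scramble cells. The changes differed by 1.55 (SE 0.17, adjusted p = 6.68e-05), and the groups did not overlap in either experiment.

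Further probe sets of called members did not always pass. With HDAC5 shRNA, 46 called members had 67 further single-symbol probe sets, of which 33 passed in the same direction, 3 in the opposite one and 31 did not pass. With LSD1 shRNA, 10 called members had 13, of which 3 passed in the same direction and 10 did not pass.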
